A study of Mus musculus with 9 samples.

Results

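Fibroblasts isolated from embryos of mice without STING (SKO, labelled STING-/-) were compared with wild type fibroblasts (WT, labelled STING+/+) on 6 of the 9 microarrays of the study, 3 per genotype. Each genotype had 1 array of mock cells (the protocol calls the controls untreated), 1 of cells that received double-stranded DNA by transfection (dsDNA; ISD in the labels) and 1 of cells given lipopolysaccharide (LPS), the latter 2 for 6 h. The arrays were matched by treatment, and the genes described are those that stood apart in the same direction under mock, dsDNA and LPS, so genes that differed only because dsDNA induced them in WT were left out. The other 3 arrays hold fibroblasts without MyD88 (MyD88KO, labelled MyD88-/-) under the same treatments and serve here for the spread and for comparison. The labels give no strain, embryo age, sex or passage, and do not tell whether separate cultures were used for a genotype, so p-values measure only the spread between these arrays. With a single knockout line described, the effect of STING loss and a difference between cell preparations cannot be told apart.

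STING is a membrane protein of the endoplasmic reticulum. It binds the cyclic dinucleotide that the sensor cGAS makes when it meets DNA in the cytosol, and it then recruits the kinase TBK1, which activates the transcription factor IRF3 and the interferon genes. NF-kB is activated through STING as well. Embryonic fibroblasts are a mixed mesenchymal culture that makes collagen matrix, and such cultures can hold muscle precursors and macrophages from the embryo.

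Signals are given in log2, where 1 stands for 2-fold, and a genotype's difference is the mean of the 3 matched differences ± SE. All 9 arrays had nearly equal medians, from 4.42 to 4.46. Of 12 fibroblast markers, 11 reached the overall median signal (4.44) on each of the 6 arrays. Their summed linear signal was 16939 to 17580 in SKO, against 16652 to 17286 in WT. In limma 0 of the 4 tested sex-linked genes passed between SKO and WT, where 2.32% of all tested genes passed, and robust eBayes also gave 0. Before adjustment 2 of the 4 had a p under 0.05 in limma, a count without a background here. At such a share, 0 of 4 does not tell whether the sexes of the cells match.

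Sting1, which encodes STING, checked the labels. Its signals in WT were 8.54 with mock, 8.57 with dsDNA and 8.54 with LPS. In SKO they were 4.54, 4.60 and 3.78, near or under the overall median, and no SKO array came near a WT array. The difference was -4.24 ± 0.18 (limma adjusted p = 0.000179; lower in 3 of 3 treatments). With SKO signals this dim, its fold is best read as a lower bound.

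A small set of genes separated the genotypes whatever the treatment. Of 13530 genes whose brighter array was at or above 4.44 in each matched pair, 26 were at least 2-fold higher in SKO under all 3 treatments, a background of 0.192%, and 9 were at least 2-fold lower, a background of 0.0665%. These shares rest on the same differences that chose the genes. Of the 26, Mmp13 was also raised at least 2-fold by dsDNA in WT, and the other 25 were not. In the limma test over 14737 genes, 63 genes passed at an adjusted p under 0.05 and a mean difference of at least 2-fold (0.427%), with 47 higher (0.319%) and 16 lower (0.109%). All 35 genes apart under the 3 treatments were among the 63. Both rules use the same 3 differences, so this overlap is no separate support. The other 28 had the same sign under all treatments but missed 2-fold in at least 1 of them. The 63 became 31 without the WT mock array, 32 without the WT dsDNA array, 38 without the SKO mock array and 41 with only the 6 SKO and WT arrays in the fit. Of the 35 genes, 24, 25, 27 and 27 passed in those fits, and 21 passed in each of the 9 fits that left out 1 array. The MyD88KO arrays stood apart from the others. The Y-linked gene Eif2s3y had 3.35, 4.56 and 3.20 in MyD88KO under mock, dsDNA and LPS, against 7.60, 7.62 and 7.07 in WT and 7.26, 7.33 and 7.18 in SKO. Proliferation genes averaged 8.45 to 8.55 in MyD88KO, 7.37 to 7.46 in WT and 7.26 to 7.32 in SKO. Comparisons with MyD88KO thus carry a difference in sex-linked and proliferation genes, whose part was not tested. By the same rules MyD88KO differed from WT at 443 genes in limma (3.01%), with 146 of 13409 higher (1.09%) and 119 lower (0.887%) at least 2-fold under all 3 treatments. SKO differed from MyD88KO at 548 genes in limma (3.72%).

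**Figure D1:**
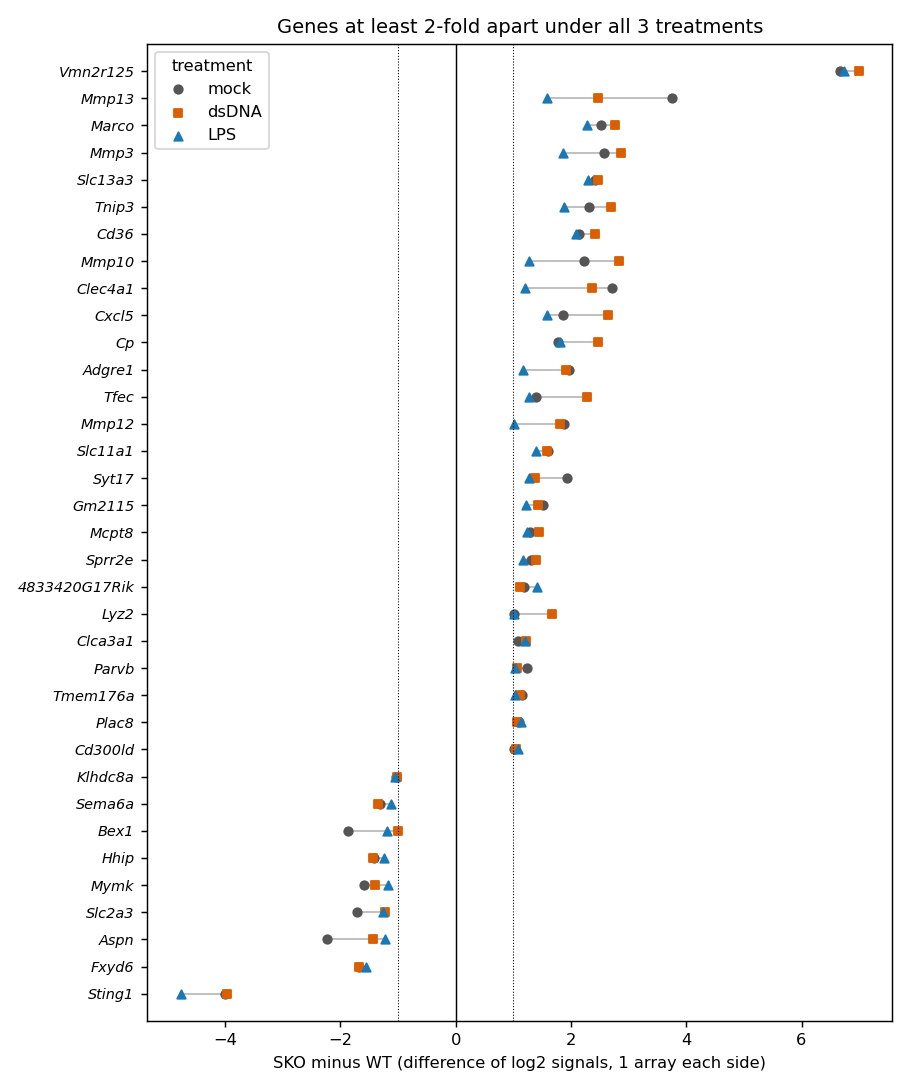
SKO minus WT difference of log2 signals under mock, dsDNA and LPS for the 35 genes at least 2-fold apart under all 3 treatments, 1 point per treatment, with dotted lines at 2-fold. Vmn2r125 lies above 6 and Sting1 between -4.76 and -3.96, and in 19 of the 26 higher genes the LPS point is the smallest of the 3.

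The most coherent group among the higher genes was a run of matrix metalloproteinases, secreted enzymes that cut collagen and other matrix proteins. Mmp3, Mmp10, Mmp12 and Mmp13 were all at least 2-fold higher in SKO under each treatment. Mmp3 (stromelysin 1) had, in the order mock, dsDNA and LPS, signals of 5.94, 5.65 and 6.74 in WT and 8.51, 8.51 and 8.60 in SKO. The SKO arrays lay together, well above WT, where LPS gave the highest level. The difference was 2.43 ± 0.20 (limma adjusted p = 0.0024). Mmp10 (stromelysin 2) had 6.76, 6.29 and 8.17 in WT and 8.98, 9.13 and 9.44 in SKO, a difference of 2.11 ± 0.27 (limma adjusted p = 0.0111). Its adjusted p was 0.0818 without the WT mock array, 0.0768 without the SKO mock array and 0.0588 with 6 arrays.

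Mmp12 (macrophage elastase) had 4.80, 4.71 and 5.14 in WT and 6.68, 6.52 and 6.15 in SKO, a difference of 1.57 ± 0.17 (limma adjusted p = 0.00634). Its adjusted p was 0.0595 without the WT mock array, 0.0502 without the WT dsDNA array and 0.0529 with 6 arrays. Mmp13 (collagenase 3) varied most in WT, with 4.60, 5.79 and 6.89 against 8.34, 8.27 and 8.47 in SKO. The difference was 2.60 ± 0.48 (limma adjusted p = 0.0438), and it passed in 3 of the 9 fits without 1 array, with adjusted p up to 0.242 without the WT dsDNA array. Without the WT mock, SKO mock, SKO LPS, MyD88KO mock and MyD88KO LPS arrays these were 0.203, 0.157, 0.117, 0.0949 and 0.0583, and 0.0741 with 6 arrays. In MyD88KO the signals of Mmp3 were 5.97, 6.15 and 6.16, inside the WT range, and SKO exceeded MyD88KO by 2.45 ± 0.20 (limma adjusted p = 0.000162).

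These 4 genes lie in the metalloproteinase cluster of chromosome 9, where the RefSeq table lists 10 family members in a row. In that order, Mmp13 and Mmp12 are followed by Mmp1b, Mmp3, Mmp1a, Mmp10, Mmp8, Mmp27, Mmp20 and Mmp7. Members past 2-fold are interleaved with others. Mmp1a, between Mmp3 and Mmp10, differed by 0.47 and Mmp1b by 0.32, both at signals too low to be tested. Mmp8 missed the threshold, at 0.56 ± 0.14 (limma adjusted p = 0.104). Mmp27, Mmp20 and Mmp7 had mean differences of 0.13, -0.08 and -0.03 and were not tested. Outside the cluster, Mmp9 (gelatinase B) had differences of 1.71, 1.43 and 0.49 under mock, dsDNA and LPS, with SKO signals of 9.38, 9.32 and 9.49. Its difference of 1.21 ± 0.23 passed with an adjusted p of 0.0478 in limma, but it passed in only 1 of the 9 fits without 1 array (0.256 without the WT dsDNA array) and had 0.112 with 6 arrays.

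The promoters of the 4 genes are shown because the letters TGAGTCA, the motif of the transcription factor AP-1, occur near the start in each, on either strand. In Mmp13 they lie on the opposite strand, so its printed stretch reads TGACTCA. The windows are RefSeq promoters of assembly GRCm38.p6 on the + strand, 250 bases before to 50 after the annotated start, with the motif in capitals. They are Mmp13 at chr9:7272264-7272563, Mmp12 at chr9:7347124-7347423, Mmp3 at chr9:7445572-7445871 and Mmp10 at chr9:7502092-7502391.
Mmp13: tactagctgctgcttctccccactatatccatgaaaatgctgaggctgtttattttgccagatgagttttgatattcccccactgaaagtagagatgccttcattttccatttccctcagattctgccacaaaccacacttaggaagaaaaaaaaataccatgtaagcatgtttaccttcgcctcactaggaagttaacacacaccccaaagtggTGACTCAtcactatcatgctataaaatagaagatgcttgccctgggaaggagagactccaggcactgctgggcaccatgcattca
Mmp12: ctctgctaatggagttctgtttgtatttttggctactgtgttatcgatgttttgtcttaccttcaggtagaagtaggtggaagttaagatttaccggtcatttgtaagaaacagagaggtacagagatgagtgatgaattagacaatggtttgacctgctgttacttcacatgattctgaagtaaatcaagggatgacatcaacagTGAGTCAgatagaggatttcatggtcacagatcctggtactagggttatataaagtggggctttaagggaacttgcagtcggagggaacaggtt
Mmp3: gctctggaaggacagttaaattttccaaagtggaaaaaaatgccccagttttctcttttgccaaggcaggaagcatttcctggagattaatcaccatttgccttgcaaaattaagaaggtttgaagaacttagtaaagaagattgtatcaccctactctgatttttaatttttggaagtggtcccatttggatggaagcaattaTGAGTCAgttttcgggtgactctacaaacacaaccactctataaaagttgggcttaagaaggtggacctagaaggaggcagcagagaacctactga
Mmp10: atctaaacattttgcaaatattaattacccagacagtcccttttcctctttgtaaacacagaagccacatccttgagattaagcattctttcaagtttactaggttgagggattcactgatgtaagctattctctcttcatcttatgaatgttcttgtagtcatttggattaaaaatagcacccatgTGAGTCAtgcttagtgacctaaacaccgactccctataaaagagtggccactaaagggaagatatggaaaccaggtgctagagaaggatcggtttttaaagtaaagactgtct
The motif begins 35 bases before the start in Mmp13, 44 in Mmp12, 46 in Mmp3 and 63 in Mmp10. It was searched on both strands, and matches of other motifs were counted separately, overlapping or not. The other promoter listed for Mmp12 does not hold it. The windows of Mmp1a and Mmp1b hold it too, as does 1 of 2 windows of Mmp7, and those of Mmp8, Mmp27 and Mmp20 do not. Of all 32851 windows of this length, 5.2% hold TGAGTCA, against 5 of 26 windows of the higher genes (22 genes with a window), the fifth being that of Sprr2e, and 0 of 5 windows of the lower genes. For the NF-kB motif 1.47% of all windows and 1 of the 26 had a match, for the interferon-stimulated response element 3.44% and 2, and for the macrophage factor PU.1 (GAGGAAGT) 3.2% and 3. A match of letters is a description of the window only.

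**Figure D2:**
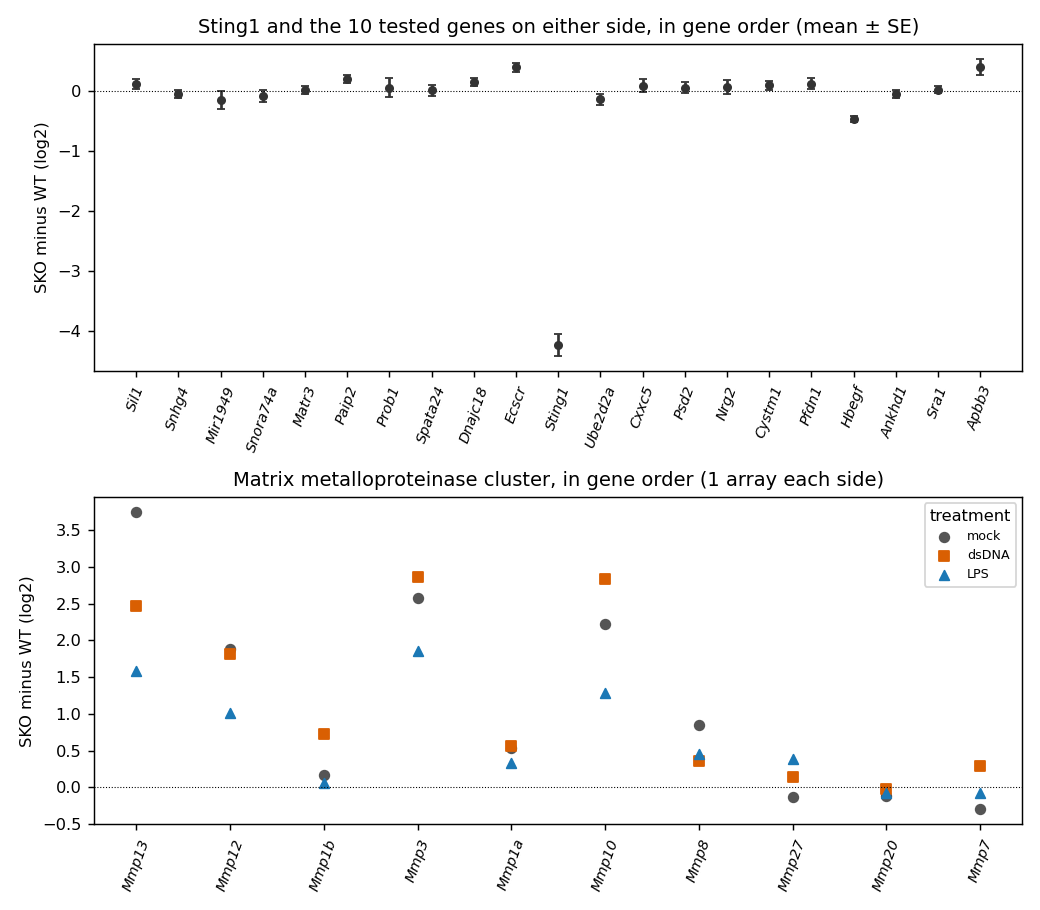
Mean SKO minus WT difference ± SE (log2) of Sting1 and the 10 tested genes on either side of it (upper panel), and the difference under each treatment for 10 metalloproteinase genes of the chromosome 9 cluster (lower panel), both in gene order. Sting1 stands alone at -4.24, while in the cluster Mmp13, Mmp12, Mmp3 and Mmp10 lie above 1 under each treatment and the 6 others below 1.

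Several other higher genes are known from macrophages and other myeloid cells. Of those described here Adgre1 and Lyz2 are on the fixed leukocyte list, Cd36 is on the list of adipocyte markers, and the others are grouped by what is known of them. Marco, a scavenger receptor that binds bacteria, had 5.12, 4.80 and 5.44 in WT (always mock, dsDNA, LPS) and 7.64, 7.56 and 7.71 in SKO. All SKO arrays lay above all WT arrays, as in 10.7% of all tested genes, and the difference was 2.52 ± 0.13 (limma adjusted p = 0.000307). MyD88KO had 5.16, 4.84 and 4.91, and SKO exceeded it by 2.67 ± 0.13 (limma adjusted p = 1.87e-05). Cd36, a receptor that takes up fatty acids and oxidised lipoproteins, had 4.56, 4.35 and 4.39 in WT and 6.69, 6.77 and 6.48 in SKO (2.22 ± 0.10, limma adjusted p = 0.000179). Its 3 differences lay between 2.09 and 2.42, close to each other. Of the 8 adipocyte markers tested, Cd36 was the only one to pass in limma, against 1.19% of all tested genes passing as higher. The list's median was 0.11 and 7 were positive, beside 7469 of all 14737 tested genes. Fabp4, a fatty acid binding protein gene, was at 0.68 ± 0.14 (limma adjusted p = 0.0547). The summed signal of the 10 measured markers was 337.2 to 354.8 in SKO, 222.2 to 242.5 in WT and 308.1 to 343.6 in MyD88KO, and the part of adipocytes was not tested. Adgre1, which encodes a surface antigen that defines mouse macrophages, had 5.18, 4.84 and 5.54 in WT and 7.15, 6.76 and 6.71 in SKO (1.68 ± 0.15, limma adjusted p = 0.00381).

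Slc11a1, the metal ion transporter of phagosomes known as NRAMP1, had 5.43, 5.26 and 5.29 in WT and 7.04, 6.85 and 6.69 in SKO, a difference of 1.53 ± 0.11 (limma adjusted p = 0.00187). Clec4a1, a C-type lectin of myeloid cells, had 3.50, 3.64 and 4.99 in WT and 6.21, 6.02 and 6.20 in SKO, a difference of 2.10 ± 0.27 (limma adjusted p = 0.0115). The WT mock and dsDNA signals were under the overall median. Its adjusted p was 0.0721, 0.0873 and 0.069 without the WT mock, WT dsDNA and SKO mock arrays, and 0.0611 with 6 arrays. Clec4d, a related lectin 2 tested genes away on chromosome 6, differed by 1.05 ± 0.17 (limma adjusted p = 0.0259), with differences of 1.29, 1.38 and 0.49 under mock, dsDNA and LPS. It passed in 3 of the 9 fits without 1 array, with adjusted p up to 0.156 without the WT mock array.

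Tfec, a transcription factor gene of macrophages, differed by 1.65 ± 0.19 (limma adjusted p = 0.00779, and 0.0603 without the WT mock array). Mcpt8, a protease gene of basophils, differed by 1.33 ± 0.08 (limma adjusted p = 0.000751). Lyz2, the lysozyme gene of myeloid cells, had 7.15, 6.49 and 6.76 in WT and 8.15, 8.16 and 7.78 in SKO (1.23 ± 0.17, limma adjusted p = 0.0143). MyD88KO was above all WT arrays, at 7.71, 7.51 and 7.90, and SKO minus MyD88KO was 0.32 ± 0.17 (limma adjusted p = 0.205). The adjusted p of Lyz2 was 0.0577, 0.0967, 0.0719 and 0.0853 without the WT mock, WT dsDNA, WT LPS and SKO mock arrays. Among genes chosen after their values were seen, Cd53, a leukocyte tetraspanin, differed by 1.05 ± 0.09 (limma adjusted p = 0.00259) and Rac2, a GTPase of blood cells, by 1.07 ± 0.13 (0.0111). The adjusted p of Rac2 was up to 0.0873, without the WT dsDNA array.

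Across the whole list of leukocyte and macrophage markers, 5 of 18 tested passed as higher in SKO and 0 as lower, against 1.19% and 1.13% of all tested genes at any size. These were Adgre1, Lyz2, Fcer1g (0.59 ± 0.09, limma adjusted p = 0.0209), Itgam (0.58 ± 0.08, 0.0175) and Aif1 (0.51 ± 0.09, 0.0417). The last 3 passed in 4, 4 and 1 of the 9 fits without 1 array, with adjusted p up to 0.237 for Aif1 without the WT dsDNA array. The list's median was 0.27, beside 0.00 for all tested genes. Other members of the list did not pass. Csf1r, the receptor of the macrophage growth factor, had 6.47, 6.37 and 5.96 in WT and 6.23, 6.37 and 6.04 in SKO. C1qa, a complement gene of macrophages, differed by 0.00 ± 0.09 (limma adjusted p = 0.993), and Ptprc, which encodes the pan-leukocyte protein CD45, by 0.11 ± 0.19 (0.862). The summed linear signal of the 18 markers was 1651 to 1802 in SKO, 1220 to 1308 in WT and 1609 to 1735 in MyD88KO, and 17 or 18 of them were at or above the median in SKO against 16 in WT. The part of leukocytes in these results was not tested, and in bulk RNA more cells of a type and more RNA per cell cannot be told apart.

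**Figure D3:**
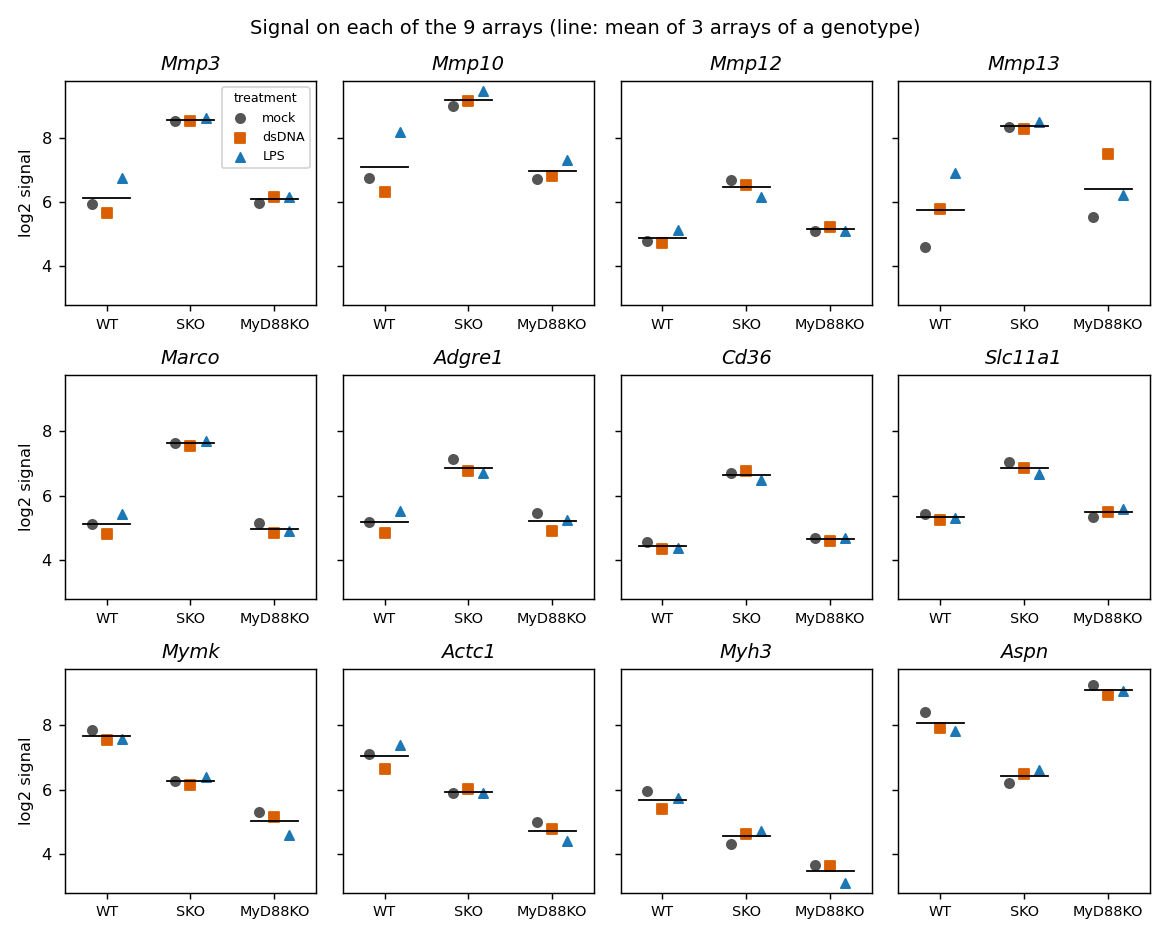
Log2 signal on each of the 9 arrays for 4 metalloproteinase genes, 4 macrophage genes and 4 genes lower in SKO, with a line at the mean of the 3 arrays of a genotype. The SKO arrays lie above all WT arrays for the upper 8 genes, as in 10.7% of all tested genes. For Mymk, Actc1 and Myh3 the levels go down from WT to SKO to MyD88KO.

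A few genes of inflammation were also higher. Cxcl5, a chemokine that attracts neutrophils, had 4.93, 4.38 and 5.97 in WT and 6.80, 7.02 and 7.55 in SKO (2.03 ± 0.27, limma adjusted p = 0.0132). Its adjusted p was 0.0684, 0.0857 and 0.0646 without the WT mock, SKO mock and SKO LPS arrays. Cp, the copper-carrying plasma protein ceruloplasmin, had 4.75, 4.20 and 4.69 in WT and 6.53, 6.67 and 6.49 in SKO (2.02 ± 0.20, limma adjusted p = 0.00506). Tnip3, a binding partner of the NF-kB inhibitor A20, had 4.35, 4.48 and 5.45 in WT and 6.67, 7.18 and 7.32 in SKO (2.30 ± 0.21, limma adjusted p = 0.00351). Lcn2, the iron-sequestering protein lipocalin 2, differed by 1.92, 1.69 and 0.96 under mock, dsDNA and LPS (1.52 ± 0.22, limma adjusted p = 0.0192). It passed in 4 of the 9 fits without 1 array, with adjusted p up to 0.125 without the WT dsDNA array. Of the chemokine list 1 of 24 tested passed, and of the cytokine and acute phase list 3 of 18, all higher, against 1.19% of all tested genes. The 3 were Cp, Lcn2 and Il11 (0.67 ± 0.12, limma adjusted p = 0.0383). Differences that change with treatment count as spread in this fit. The summed linear signal of the 25 measured chemokines with mock was 7708 in SKO and 2453 in WT. With dsDNA it was 8136 and 17623, and with LPS 11587 and 10608. Saa3, an acute phase gene, had differences of 3.69, 3.88 and 0.71 and missed the threshold (limma adjusted p = 0.0839). In the NF-kB and Toll-like receptor lists 0 of 19 and 0 of 18 passed in limma, against 2.32% of all tested genes. Robust eBayes also gave 0 in either list. At an unadjusted p under 0.05 in limma there were 6 and 3, counts without a background here. The median difference of the NF-kB list was 0.45 with mock, 0.08 with dsDNA and -0.05 with LPS. Il11 passed in 2 of the 9 fits without 1 array, with adjusted p up to 0.208 without the WT dsDNA array.

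Ikbke, which encodes a kinase related to TBK1 that also phosphorylates IRF3, was higher in SKO. It had 5.35, 5.34 and 6.03 in WT and 6.67, 6.76 and 6.85 in SKO. All SKO arrays lay above all WT arrays, as in 10.7% of all tested genes. The difference was 1.19 ± 0.18 (limma adjusted p = 0.0209), with adjusted p of 0.118, 0.106, 0.112 and 0.0646 without the WT mock, WT dsDNA, SKO mock and SKO LPS arrays. Besides Sting1 it was the only one of 17 tested cytosolic nucleic acid sensing genes to pass in limma over the 3 treatments. Of all tested genes 1.19% passed as higher and 1.13% as lower. Without the dsDNA arrays 3 of the 17 passed as higher, Ikbke (1.07), Ifih1 (0.93) and Irf7 (0.76), and Sting1 as lower. In that fit 1.15% of all tested genes passed as higher and 1.05% as lower. Tbk1 differed by 0.00 ± 0.17 and Irf3 by -0.06 ± 0.09 (limma adjusted p = 0.9998 and 0.825).

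The largest mean difference among the 14737 tested genes was that of Vmn2r125, a vomeronasal receptor gene on chromosome 4. Its signals were 2.50, 2.32 and 2.82 in WT and 9.17, 9.31 and 9.55 in SKO, and 1.81, 2.52 and 1.81 in MyD88KO. The WT and MyD88KO signals were among the low values of the arrays and the SKO signals were high, a difference of 6.80 ± 0.22 (limma adjusted p = 7.43e-05). Of 285 vomeronasal receptor genes measured, 15 were bright enough to be tested, and Vmn2r125 was so only through its SKO arrays. It was the only one of the 15 called in limma, where 0.427% of all tested genes were called. Whether its probe set also reads other members of this large family was not tested. The tested genes before it on the chromosome, Samd11 and Noc2l, missed the threshold at 0.06 and -0.19 (limma adjusted p = 0.895 and 0.159).

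Other genes were also on the higher side under each treatment. Slc13a3, a carrier of dicarboxylates such as succinate, had 5.01, 4.80 and 4.66 in WT and 7.44, 7.26 and 6.95 in SKO (2.39 ± 0.11, limma adjusted p = 0.000184). Syt17, a synaptotagmin gene, differed by 1.53 ± 0.16 (limma adjusted p = 0.00559, and 0.0502 without the WT dsDNA array). Parvb, a focal adhesion gene, and Tmem176a, a membrane protein gene, differed by 1.11 ± 0.07 and 1.10 ± 0.07 (limma adjusted p = 0.000878 and 0.000751). Sprr2e, of the small proline-rich proteins of the skin barrier, differed by 1.29 ± 0.10 (limma adjusted p = 0.0024). Its WT and MyD88KO signals were all under the overall median. Sprr2e was thus tested only through its SKO arrays, and its p-value is no support apart from that choice. Clca3a1, of the chloride channel accessory family, differed by 1.17 ± 0.07 (limma adjusted p = 0.000751). For Gm2115 (1.39 ± 0.11, limma adjusted p = 0.00192) the MyD88KO arrays, at 8.41, 7.91 and 8.57, were as high as SKO, at 8.34, 8.13 and 8.26, against 6.82, 6.70 and 7.04 in WT. The same held for Plac8, with 6.22, 6.95 and 6.37 in MyD88KO, 6.09, 5.96 and 6.09 in SKO and 4.99, 4.89 and 4.95 in WT (1.10 ± 0.17, limma adjusted p = 0.0224). Plac8 and Cd300ld (1.04 ± 0.15, 0.0175) passed in 4 of the 9 fits without 1 array, with adjusted p up to 0.148 and 0.123 without the WT dsDNA array. The remaining gene, 4833420G17Rik, differed by 1.24 ± 0.09 (limma adjusted p = 0.00187).

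Besides Sting1, 8 genes were at least 2-fold lower in SKO under all 3 treatments. Fxyd6, a regulator of the sodium pump, had 8.76, 8.61 and 8.49 in WT and 7.08, 6.93 and 6.94 in SKO, and it had the smallest error of them (-1.64 ± 0.06, limma adjusted p = 7.98e-05). MyD88KO lay between at 7.77, 7.57 and 7.59. Aspn, the small leucine-rich matrix proteoglycan asporin, had 8.42, 7.92 and 7.84 in WT and 6.20, 6.49 and 6.62 in SKO. Its difference was -1.63 ± 0.17 (limma adjusted p = 0.00634), with 0.0502 without the WT dsDNA array and 0.0543 with 6 arrays. In MyD88KO Aspn was higher than in WT, at 9.26, 8.93 and 9.08, and SKO minus MyD88KO was -2.65 ± 0.17 (limma adjusted p = 6.56e-05).

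Slc2a3, the glucose transporter GLUT3, had 8.12, 7.74 and 7.61 in WT and 6.40, 6.51 and 6.35 in SKO (-1.40 ± 0.13, limma adjusted p = 0.00386). MyD88KO was as low, at 6.42, 6.21 and 6.51, and SKO minus MyD88KO was 0.04 ± 0.13 (limma adjusted p = 0.846). Hhip, an antagonist of hedgehog signalling, had 6.18, 6.25 and 6.06 in WT and 4.76, 4.82 and 4.81 in SKO (-1.37 ± 0.08, limma adjusted p = 0.000727), with 4.19, 4.25 and 4.09 in MyD88KO. Bex1, a brain-expressed X-linked gene, had 7.92, 7.28 and 7.37 in WT, 6.05, 6.28 and 6.17 in SKO and 4.47, 4.29 and 3.98 in MyD88KO. Its difference between SKO and WT was -1.36 ± 0.16 (limma adjusted p = 0.00916, 0.0592 without the WT mock array and 0.0561 with 6 arrays). Sema6a, a transmembrane semaphorin that guides axons and cells, and Klhdc8a, a kelch domain gene, differed by -1.26 ± 0.09 and -1.04 ± 0.08 (limma adjusted p = 0.00187 and 0.00192).

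Some muscle genes were lower in SKO than in WT. Mymk, which encodes myomaker, the protein that fuses myoblasts, had 7.85, 7.55 and 7.58 in WT and 6.26, 6.14 and 6.40 in SKO (-1.39 ± 0.16, limma adjusted p = 0.0081). Its adjusted p was 0.0672, 0.0595 and 0.0569 without the WT mock, WT dsDNA and SKO mock arrays. Myh3, the embryonic myosin heavy chain, had 5.95, 5.38 and 5.72 in WT and 4.31, 4.63 and 4.71 in SKO, and Actc1, cardiac alpha actin, 7.11, 6.65 and 7.38 in WT and 5.88, 6.03 and 5.88 in SKO. Their differences of -1.13 ± 0.21 and -1.11 ± 0.21 both had an adjusted p of 0.0438 in limma. They passed in 2 and 3 of the 9 fits without 1 array, with adjusted p up to 0.204 and 0.184 without the WT mock array. Of 15 skeletal muscle markers tested 4 passed as lower and 0 as higher (list median -0.32), against 1.13% and 1.19% of all tested genes. Others in these lists did not pass, among them the skeletal actin gene Acta1 at -0.02 (limma adjusted p = 0.962), the creatine kinase gene Ckm at 0.05 (0.889) and the smooth muscle actin gene Acta2 at -0.04 (0.569). The fourth was Tnnt1, a troponin gene (-0.49 ± 0.09, limma adjusted p = 0.0387), which passed in 1 of the 9 fits without 1 array. The summed linear signal of the 16 measured markers was 1430 to 1461 in SKO, 1601 to 1921 in WT and 1154 to 1468 in MyD88KO. Of 12 smooth muscle and pericyte markers 4 passed as lower and 0 as higher, led by Myh11, the smooth muscle myosin (-0.76 ± 0.09, limma adjusted p = 0.00916), with Des, Actg2 and Cspg4 between -0.52 and -0.37. These 4 passed in 7, 4, 6 and 1 of the 9 fits without 1 array. Their summed signal was 18227 to 18939 in SKO and 19686 to 20985 in WT. Epithelial markers had a similar median of -0.32, with 0 of 8 tested positive and 1 passing, Dsp, a desmosome gene (-0.76 ± 0.09, limma adjusted p = 0.00788). Without the dsDNA arrays 3 of the 8 passed as lower, Dsp and the keratin genes Krt18 and Krt19. The summed signal of the 13 measured epithelial markers was 930.4 to 988.6 in SKO, 1117 to 1265 in WT and 492.7 to 554.1 in MyD88KO. The shares of muscle and epithelial cells were not measured, and their part in the result was not tested.

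Among matrix genes other than the proteases, those that passed were lower. Of 35 tested genes in the list of matrix and matrix-modifying genes, 5 passed as higher, all of them metalloproteinases (Mmp3, Mmp9, Mmp10, Mmp12 and Mmp13), and 6 as lower, against 1.19% and 1.13% of all tested genes. Eln, the elastin gene, had 6.85, 6.69 and 6.82 in WT and 5.99, 5.61 and 5.26 in SKO (-1.17 ± 0.15, limma adjusted p = 0.0114, and up to 0.0717 without the WT dsDNA array). Fbn2, the microfibril protein fibrillin 2, differed by -0.89 ± 0.10 (limma adjusted p = 0.00701), and Ogn, a small matrix proteoglycan, by -0.66 ± 0.09 (0.0175). Loxl1 and Thbs2 were lower by under 1.5-fold (-0.28 for both). Fbn2, Ogn, Loxl1 and Thbs2 passed in 8, 5, 6 and 4 of the 9 fits without 1 array. Of 22 collagen genes 2 passed as lower (1.13% of all tested genes), Col11a1 and Col12a1, at -0.38 ± 0.06 and -0.34 ± 0.03 (limma adjusted p = 0.0303 and 0.00453). Col11a1 passed in 2 and Col12a1 in 9 of the 9 fits without 1 array. The collagen median was 0.01.

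**Figure D4:**
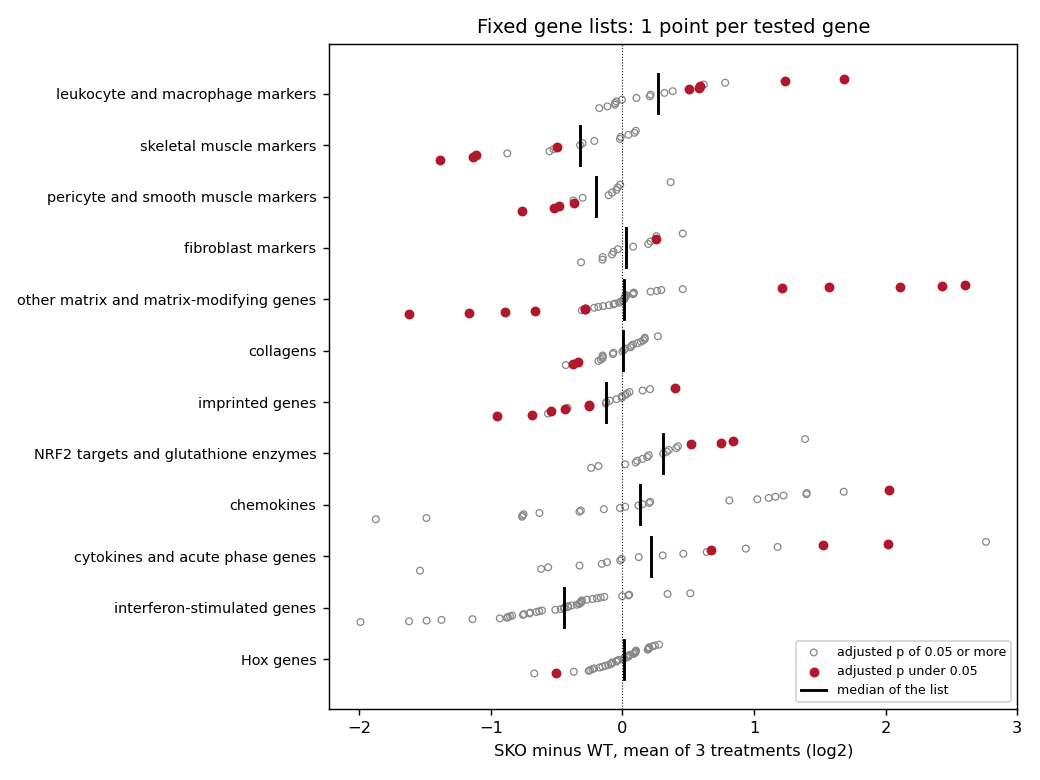
Mean SKO minus WT difference (log2) of each tested member of 12 fixed lists, with filled points for a limma adjusted p under 0.05 and a bar at the list's median. Filled points lie to the right in the leukocyte list, to the left in the muscle lists and on both sides in the matrix list, where the metalloproteinases are the 5 on the right.

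Among Hox, other patterning and imprinted genes, those that passed had mean differences under 2-fold. The imprinted gene Mest was past 2-fold with mock (-1.17) and with LPS (-1.07). Of all tested genes 1.13% passed as lower and 1.19% as higher. Of 35 Hox genes tested, which record position along the body axis, 1 passed, Hoxc5 (-0.50 ± 0.09, limma adjusted p = 0.0391). Of 46 other patterning transcription factors 2 passed, both lower, Dlx5 (-0.91 ± 0.15, 0.0287) and the forelimb factor Tbx5 (-0.60 ± 0.09, 0.0175). Hoxc5, Dlx5 and Tbx5 passed in 1, 2 and 5 of the 9 fits without 1 array. Of 21 imprinted genes, which are read from the copy of only a single parent, 6 passed as lower and 1 as higher. Mest differed by -0.95 ± 0.13 (limma adjusted p = 0.0139), Dlk1 by -0.69 ± 0.08 (0.00722) and the cell cycle inhibitor gene Cdkn1c by -0.54 ± 0.06 (0.00779). Igf2, the growth factor gene, had 11.39, 11.44 and 11.46 in WT and 11.03, 10.94 and 11.03 in SKO (-0.43 ± 0.03, limma adjusted p = 0.0024). Impact was the higher member, at 0.40 ± 0.05 (0.00979). Igf2 passed in all 9 fits without 1 array, Dlk1 in 7, Cdkn1c in 6, Impact in 5 and Mest in 4, with the highest adjusted p of Mest, 0.102, without the WT mock array.

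Differences were smaller with LPS in many of the higher genes. Over the 26 higher genes the median difference was 1.82 with mock, 1.86 with dsDNA and 1.27 with LPS, and LPS gave the smallest of the 3 in 19. In WT, LPS raised 5 of the 26 at least 2-fold over mock, and in SKO 0. The 5 were Mmp13, Clec4a1, Mmp10, Tnip3 and Cxcl5, with LPS minus mock of 2.29, 1.49, 1.41, 1.10 and 1.04 in WT and of 0.13, -0.01, 0.47, 0.65 and 0.76 in SKO. In each of the 5 the SKO mock level was above the WT mock level, as the rule required, and at or above that of WT with LPS. The rule also favours genes with a low WT mock signal, from which the rise in WT is measured. The share of all genes raised by LPS was not counted, so 5 and 0 have no background here. The WT LPS array enters both quantities, and the interaction of genotype and LPS could not be tested with 1 array per combination. For the single treatments, 107 genes were at least 2-fold higher in SKO with mock (0.766%), 92 with dsDNA (0.659%) and 65 with LPS (0.467%). In the 9 lower genes the medians were -1.68, -1.41 and -1.22.

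Requiring all 3 treatments left out most of the fixed list of interferon-stimulated genes. With dsDNA, 255 genes were at least 2-fold lower in SKO (1.83% of 13966) against 23 with mock (0.165%) and 34 with LPS (0.244%). Of the 255, 199 were raised at least 2-fold by dsDNA in WT and were not 2-fold lower under mock or LPS. These 199 held 37 of the 41 tested interferon-stimulated genes, and 134 of the 199 were on no fixed list. Of 41 interferon-stimulated genes tested 0 passed over the 3 treatments in limma, where 0 had an unadjusted p under 0.05, and robust eBayes also gave 0. Their median difference was 0.29 with mock, -2.33 with dsDNA and 0.76 with LPS, so the sign under dsDNA was the opposite of the others. In a fit without the dsDNA arrays, 9 of the 41 passed as higher in SKO and 0 as lower, against 1.15% and 1.05% of all tested genes. In that fit 38 of 41 had a positive sign and the median was 0.51, while 7200 of 14737 tested genes were positive. Xaf1, an interferon-induced apoptosis regulator chosen after its values were seen, had 4.51 in WT and 6.03 in SKO with mock, 6.49 and 7.67 with LPS, and 7.92 and 6.26 with dsDNA. Its difference without the dsDNA arrays was 1.35 ± 0.11 (limma adjusted p = 0.00404).

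The genes around Sting1 in the genome had differences under 2-fold. Of the 20 tested genes within 10 places of Sting1 on chromosome 18, 0 were called at 2-fold in limma, and 2 passed at a smaller size, against 2.32% of all tested genes, with 4 at an unadjusted p under 0.05 (robust eBayes gave 2 and 4). Hbegf, a growth factor gene, differed by -0.47 ± 0.05 (limma adjusted p = 0.0081) and Ecscr by 0.40 ± 0.08 (0.0478), which passed in 6 and 1 of the 9 fits without 1 array. The 20 differences lay between -0.47 and 0.40, with a median of 0.05. The 35 genes apart under all treatments, of 14737 tested, were spread over 17 chromosomes. Chromosome 6 held 5 of them among 721 tested genes, and chromosome 9 held 5 among 820. Those on chromosome 9 include the clustered Mmp13, Mmp12, Mmp3 and Mmp10, which are not separate places in the genome.

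The 2-fold limit cut through a continuous range. Lyz2 and Cd300ld were just inside it, with smallest differences of 1.006 and 1.007, and Lcn2 and Cd53 just outside, with 0.957 and 0.950. On the lower side Bex1 and Klhdc8a were inside at -1.005 and -1.025, and Lrrn1 and Mgll outside at -0.875 and -0.866.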

How the data were processed

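Gene expression was measured on 9 Affymetrix mouse gene arrays, 1 for each of 3 genotypes under 3 treatments. The authors deposited log2 signals per probe set, made with Affymetrix Expression Console 1.3.1.187 per the submitters' processing notes. For the normalization method and genome build the sources used here give nothing. Depth does not apply to arrays, and their number limits the precision. Of 41345 probe sets, 23521 have 1 gene symbol in the platform annotation, 1814 several and 16010 none, and only the first were named. Symbols of 23328 were matched to RefSeq. For a gene with several probe sets the brightest on average over the 9 arrays was kept, leaving 22180 genes (1082 with more than 1 probe set).

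The 14737 genes that reached the overall median signal (4.44) on at least 1 array were fitted with limma 3.58.1 in R 4.3.3. Genotype and treatment entered additively, eBayes used an intensity trend, and the fit had 4 residual degrees of freedom. The contrast is the mean of the 3 matched differences, and the MyD88KO arrays enter only its spread. P-values were adjusted by Benjamini-Hochberg over the tested genes. The script was tested on simulated data. Genes named were the 14 largest each way among those called and apart, up to 4 per list, called neighbours of Sting1 and those nearest the limit. Others were named after their values were seen. The members and gene lists were chosen with earlier results of these data known. Alternatives covered the arrays in the fit, the trend, robust eBayes, the filter, quantile normalization, the probe set rule, the fold limit and leaving out each array.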

Additional observations from a re-analysis of the deposited data

Results flagged for a closer look

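Probe sets without a gene symbol in the platform annotation are outside the gene comparison, and some of them separated the genotypes as well. Of 5269 such probe sets whose brighter array was at or above 4.44 in each matched pair, 6 were at least 2-fold higher in SKO under all 3 treatments (0.114%) and 2 at least 2-fold lower (0.038%). Of 1026 probe sets with several symbols, 0 were apart in either direction. Probe set 17549150 had 5.22, 4.62 and 4.74 in WT under mock, dsDNA and LPS, 9.69, 9.44 and 9.58 in SKO and 7.59, 7.41 and 7.71 in MyD88KO. Probe set 17549062 had nearly the same levels, with differences of 4.07, 4.41 and 4.86 between SKO and WT. Probe set 17363370 had 1.89, 2.38 and 2.13 in WT, 5.51, 6.81 and 6.75 in SKO and 1.88, 2.20 and 1.62 in MyD88KO, so MyD88KO was with WT there. On the lower side, probe set 17550394 had 8.34, 8.44 and 8.72 in WT and 7.07, 6.95 and 7.39 in SKO. What these probe sets read was not analysed here.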

How the results depend on the processing

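The 63 genes called between SKO and WT became 41 with only the 6 SKO and WT arrays in the fit, and 31 to 68 when 1 array was left out. The other alternatives gave 54 to 66. The 35 genes apart under all 3 treatments became 105 at a limit of 1.5-fold and 8 at 3-fold, and 33 to 47 under the others. Over 190 genes and 3220 alternative values, 2695 kept their direction and side of the threshold, 485 no longer passed, 38 newly passed and 2 reversed. Both reversals were of Ifih1, an RNA sensor gene induced by interferon, at -0.88 in the main setting (limma adjusted p = 0.784). It was 0.93 without the dsDNA arrays and 0.95 without the SKO dsDNA array (limma adjusted p = 0.0179 and 0.00906). With 1 array left out it ranged from -1.89, without the SKO LPS array, to 0.95, and in the reversals fewer dsDNA arrays enter the contrast. No paired analysis was possible because each group has 1 array and all share the same replicate number, so that number cannot be a block. The arrays are matched by treatment instead, which is a term of every fit. Of the 26 higher genes, 9 lie under the overall median in WT, on all 3 arrays for Vmn2r125, Sprr2e and Cd300ld, on 2 for Cd36, Clec4a1 and Tfec and on 1 for Cp, Cxcl5 and Tnip3, so the sizes of their differences are less certain than those of brighter genes.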

Other observations

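Some genes of the antioxidant response were slightly higher in SKO. Of 17 tested targets of the transcription factor NRF2 and glutathione enzymes, 15 had a positive difference (7469 of all 14737 tested), the median was 0.31 and 3 passed, all higher (1.19% of all tested). Nqo1, a quinone reductase, had 8.10, 8.34 and 8.02 in WT under mock, dsDNA and LPS and 8.82, 9.35 and 8.82 in SKO (0.84 ± 0.11, limma adjusted p = 0.0145). Mgst1, a microsomal glutathione transferase, differed by 0.75 ± 0.09 (limma adjusted p = 0.0081) and Gsta4, a cytosolic one, by 0.52 ± 0.10 (0.0495). Nqo1, Mgst1 and Gsta4 passed in 5, 7 and 1 of the 9 fits without 1 array.

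In the TGF-beta and BMP list and in the Wnt list 3 of 27 tested genes each passed in limma. In the list of fibroblast growth factor, insulin-like and retinoid signalling 4 of 27 passed, against 2.32% of all tested genes. Those not described below were Gdf6 (-0.71), Ltbp1 (-0.29) and Igfbp5 (-0.54). Rspo3, an enhancer of Wnt signalling, differed by 0.77 ± 0.08 (limma adjusted p = 0.0054) and passed in all 9 fits without 1 array, while Ror1 and Sfrp1 were lower at -0.71 and -0.64 and passed in 1 each. Crabp2, a retinoic acid binding protein, was lower at -0.74 ± 0.07 (limma adjusted p = 0.00448; 9 of 9), and its relative Crabp1 was higher at 0.44 ± 0.06 (0.0114; 5 of 9). Fgf7, a growth factor for epithelia, had 7.80, 7.32 and 8.66 in WT and 9.18, 9.12 and 9.25 in SKO (1.26 ± 0.21, limma adjusted p = 0.0276), and passed in 4 of the 9 fits without 1 array. Sox9, a cartilage factor, differed by -0.68 ± 0.08 (limma adjusted p = 0.0088) and passed in 7 of the 9 fits. It was the 1 member to pass among 9 tested chondrocyte and osteoblast markers. Bmp7 differed by -0.75 ± 0.13 (limma adjusted p = 0.0346) and passed in 2 of the 9 fits.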
